A study of Mus musculus with 8 samples.

Results

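Gm5796, Gm3264, Gm3002 and Gm3219 are predicted mouse genes on chromosome 14 whose transcripts were measured in the subventricular zone of 3xTg and wild-type (WT) mice. They were taken as every probe whose gene symbol in the platform annotation is one of these 4, which gave 7 probes of 32684: 3 for Gm5796, 1 for Gm3264, 2 for Gm3002 and 1 for Gm3219. The 4 symbols were chosen with the differences between 3xTg and WT in these same data known. Counted from the highest difference of all 32684 probes, the first probe of Gm5796 ranked 6, that of Gm3264 12 and that of Gm3002 14, and Gm3219 ranked 2 from the lowest. Their differences are therefore described here without a test. No protein or transcript sequences were compared, so the label of a repeated gene family was checked by position alone, and by position it covers 3 of the 4: in the RefSeq gene order (assembly GRCm38.p6), Gm3002, Gm5796 and Gm3264 lie in 1 block of predicted genes at the proximal end of the chromosome, and Gm3219 lies outside it with 548 RefSeq genes between Gm3264 and it. Gm3219 is called by its own name throughout.

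The 3xTg samples came from mice of the 3xTg line, which models Alzheimer's disease and carries, among its changes, transgenes for human APP and human MAPT under Thy1 regulatory sequence, and the WT samples from the control strain. All animals were 7-month-old females, and the labels give both groups a C57BL/6J (B6) female by 129S1/SvImJ (129S) male background without listing alleles or saying whether animals were pooled. Each group has 4 biological replicates. Samples with equal replicate numbers were hybridised together on a 2-colour array, with 3xTg labelled Cy5 and WT Cy3 on all 4 arrays, so genotype and dye cannot be told apart. Values are the authors' normalized log2 intensities, and each difference is 3xTg minus WT within an array.

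The proximal end of mouse chromosome 14 is known for takusan, a rodent-specific family that expanded by repeated duplication and is related to Dlg5, a membrane-associated scaffold protein. Some takusan proteins bind the postsynaptic scaffold PSD-95 (Dlg4) and affect synaptic activity in rodent neurons. The annotation used here does not say which of the predicted genes encode takusan proteins. The block is taken here as the 14 genes with a named probe that run from Gm2897 to 4933406F09Rik in the RefSeq gene order, which 25 probes measure. Gm5796 and Gm3264 are protein coding, while Gm3002 and Gm3219 are transcribed pseudogenes. Copies of a repeated gene can share sequence, and the probe sequences were not used here, so a probe named for one copy may also report others.

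The annotated promoters of Gm5796 and Gm3264 are unlike each other, while that of Gm3696, another gene of the block, is close to that of Gm3264. Whether Gm5796 and Gm3264 are copies of the same gene was not tested. The promoters of Gm5796, Gm3264 and Gm3696 lie at chr14:4023691-4023990 (+ strand), chr14:4855273-4855572 (+ strand) and chr14:7105454-7105753 (- strand), in that order. RefSeq (GRCm38.p6) gives 300 bases for each, from 250 before the transcript start to 50 after it, 5′ to 3′ on the strand of the gene. Capitals mark each CG dinucleotide.
Gm5796: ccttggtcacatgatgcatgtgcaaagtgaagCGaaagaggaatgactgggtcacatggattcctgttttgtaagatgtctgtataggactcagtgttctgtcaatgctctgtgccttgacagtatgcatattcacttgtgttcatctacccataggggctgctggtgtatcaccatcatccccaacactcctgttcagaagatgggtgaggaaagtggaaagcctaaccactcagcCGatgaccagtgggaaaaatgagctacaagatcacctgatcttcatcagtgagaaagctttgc
Gm3264: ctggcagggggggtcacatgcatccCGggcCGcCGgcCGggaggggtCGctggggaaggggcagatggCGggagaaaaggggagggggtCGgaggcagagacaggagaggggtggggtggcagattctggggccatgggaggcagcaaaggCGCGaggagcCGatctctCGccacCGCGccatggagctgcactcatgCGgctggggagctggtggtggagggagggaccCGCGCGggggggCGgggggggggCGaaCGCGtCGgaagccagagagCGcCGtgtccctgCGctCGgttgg
Gm3696: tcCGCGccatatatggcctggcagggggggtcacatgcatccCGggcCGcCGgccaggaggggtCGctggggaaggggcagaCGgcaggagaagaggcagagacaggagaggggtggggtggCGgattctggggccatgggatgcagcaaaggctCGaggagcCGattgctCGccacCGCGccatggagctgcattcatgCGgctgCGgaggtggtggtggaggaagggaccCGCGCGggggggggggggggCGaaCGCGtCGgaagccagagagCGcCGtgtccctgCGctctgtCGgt

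The promoter of Gm5796 holds 2 CG dinucleotides in 46.3% GC, whereas those of Gm3264 and Gm3696 hold 26 each in 73% and 70.3% GC, against a median of 52.7% GC over the 32851 promoters in the table. By edit distance, with the 300 bases of Gm3264 placed anywhere in the other window, Gm3696 was 89.3% identical to Gm3264, Gm10406 78.7%, D830030K20Rik 75.3% and Gm5796 48%. The median over all promoters in the table was 47.7%, close to the value for Gm5796. The Gm5796 promoter was 92.3% identical to that of Gm3383, a predicted gene with no named probe on this array. Of 5 motifs searched on both strands, the Gm3264 window holds the GC box GGGCGG, found in 35.7% of all promoters. None of the 3 windows holds the TATA box TATAAA, which 13.6% of all promoters hold. The same was so for the CCAAT box (37.4%), the cyclic AMP response element TGACGTCA (1.79%) and the E-box CACGTG (7.15%). A match is a description of letters and not a site. Gm3002 and Gm3219 were not among the promoters.

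Gm5796 was higher in 3xTg at each of its 3 probes. At A_55_P2097384, the log2 intensity in replicates 1 to 4 was 13.54, 13.30, 12.81 and 12.61 in 3xTg, against 10.87, 10.99, 11.40 and 11.42 in WT. Every 3xTg sample lay above every WT sample, with a gap of 1.18 between the lowest 3xTg and the highest WT value. The difference averaged 1.89 (SD 0.71 over 4 arrays), or 3.72-fold, with 2.67 and 2.32 on arrays 1 and 2 and 1.41 and 1.18 on arrays 3 and 4. At A_55_P2030282 the values were 11.79, 11.57, 11.39 and 10.91 in 3xTg, against 9.78, 9.54, 9.79 and 9.72 in WT. The WT samples spanned a narrower range than the 3xTg samples there, and the groups again did not overlap (difference 1.71, SD 0.40, 3.27-fold). At A_55_P2030275 the values were 12.92, 12.77, 12.32 and 12.10 in 3xTg, against 10.91, 10.65, 11.14 and 11.16 in WT (difference 1.57, SD 0.59, 2.96-fold). All 3 probes thus had the groups apart, by at least 0.94 log2 units.

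Gm3264 was higher in 3xTg at its probe, A_55_P2078381, with the 3xTg replicates in the same order as for Gm5796. The log2 intensity was 12.65, 12.54, 12.07 and 11.93 in 3xTg, against 10.35, 10.39, 10.71 and 10.64 in WT. The groups did not overlap, and the difference averaged 1.78 (SD 0.53), or 3.42-fold. It was 2.31 and 2.15 on arrays 1 and 2, against 1.36 and 1.29 on arrays 3 and 4.

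The probes for the transcribed pseudogene Gm3002 did not give the same picture. At A_55_P2070748 the values were 11.37, 11.39, 11.27 and 11.05 in 3xTg, against 9.50, 9.07, 9.64 and 9.82 in WT (difference 1.76, SD 0.46, 3.40-fold), with no overlap between the groups. At A_55_P2185068 they were 13.42, 12.79, 12.65 and 11.65 in 3xTg, against 12.39, 11.70, 11.45 and 11.38 in WT. At this probe 3xTg was higher on each array but the groups overlapped, since the 3xTg sample of replicate 4 lay below the WT samples of replicates 1 and 2. The difference averaged 0.90 (SD 0.42, 1.86-fold) and was 0.27 on array 4. Over the 8 samples, the other 5 probes of Gm5796, Gm3264 and Gm3002 correlated with each other at r = 0.97 to 1.00, and A_55_P2185068 with them at 0.66 to 0.79. These correlations include the difference between the groups and the shared arrays.

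**Figure D1:**
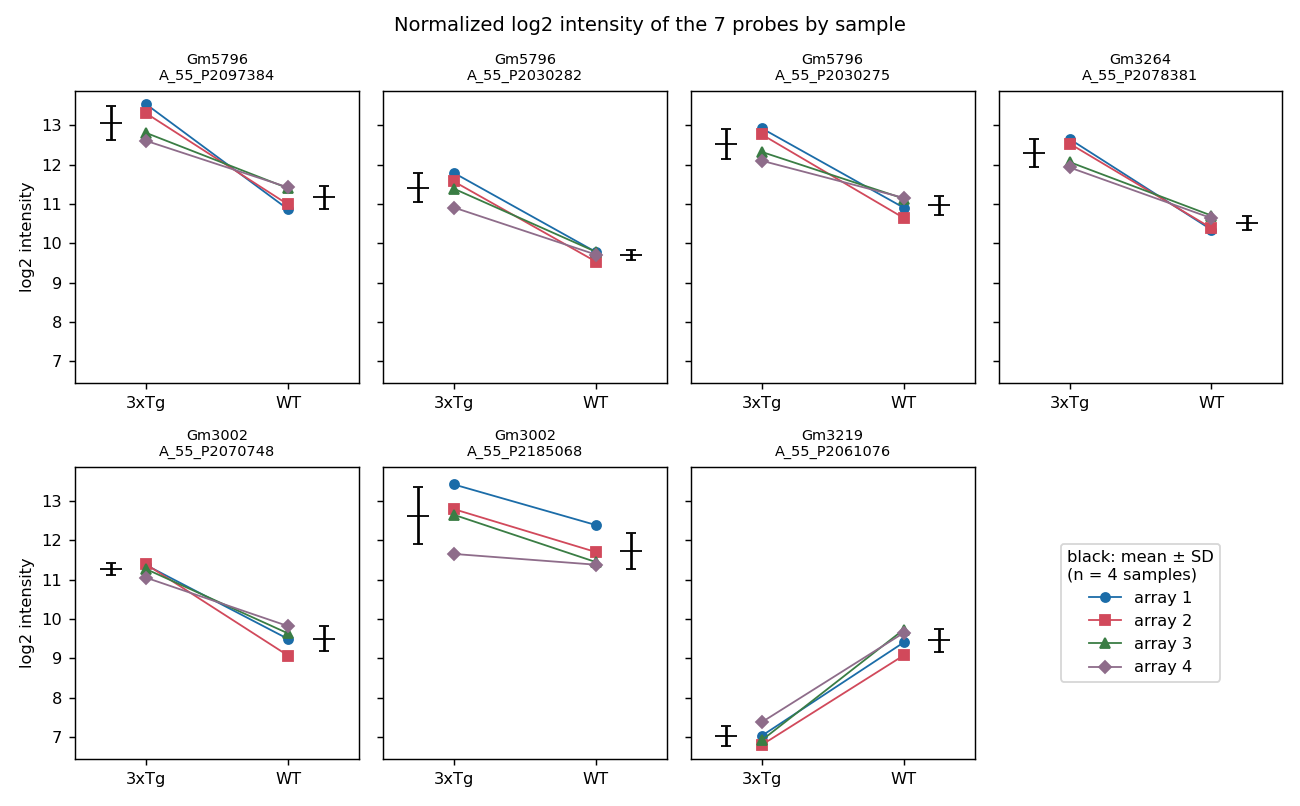
Normalized log2 intensity (vertical axis) of the 7 probes in 3xTg (left) and WT (right), with a line joining the samples of an array and black bars for mean ± SD of 4 samples. The 3xTg samples lie above the WT samples at 5 probes, overlap them at Gm3002 A_55_P2185068 and lie below them at Gm3219.

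Gm3219, the transcribed pseudogene outside the block, was lower in 3xTg. Its probe, A_55_P2061076, read 7.03, 6.80, 6.92 and 7.38 in 3xTg, against 9.41, 9.08, 9.73 and 9.65 in WT. The difference averaged -2.43 (SD 0.26), or 5.40-fold higher in WT, with -2.81 on array 3 and -2.27 to -2.37 on the others. Of the 7 probes it had the smallest SD between arrays. The 3xTg values lay near the dim end of the table: 5% of all values fell below 7.27 to 7.36 in the 3xTg samples, and Gm3219 was below that mark in replicates 1, 2 and 3. Whether the probe was above background there was not assessed.

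Among the 7 probes, 5 were higher with no overlap of the groups, where this held for 2.02% of all 32684 probes, and 1 was lower with no overlap, where this held for 2.51%. In the limma fit described next, 1.22% of all probes passed in either direction, and 18% had an unadjusted p under 0.05. The symbols were chosen from this contrast, so nothing is read from these shares.

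The other measured genes of the block were tested in a fit across all probes (limma, with the array as a fixed effect, Benjamini-Hochberg adjustment over 32684 probes, threshold 0.05). This list of the measured genes of the block was set after the data were seen. Of its 19 probes for 11 genes, 10 probes of 7 genes rose in 3xTg and 0 fell, where 0.621% of all probes rose and 0.603% fell. The median difference was 0.92, against 0.01 over all probes, and 17 of the 19 lay above 0. Since probes of genes in the block may share targets, these are not independent measurements of separate genes.

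The largest of these differences was in Gm3696, whose promoter is shown above. Its probe read 12.72, 12.68, 12.32 and 11.98 in 3xTg, against 10.62, 10.61, 10.61 and 10.90 in WT, a difference of 1.74 ± 0.17 (SE, n = 4 arrays; limma adjusted p = 0.00757). Gm10406 rose by 1.55 (adjusted p = 0.0346), Gm3317 by 1.43 (adjusted p = 0.017) and the transcribed pseudogene Gm3715 by 1.30 (adjusted p = 0.0379, all by limma), each with no overlap of the groups. Gm5797 rose at both of its probes, by 1.51 and 1.17 (limma adjusted p = 0.0113 and 0.0447).

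Probes of a gene in the block did not always agree. D830030K20Rik rose at A_55_P2104743, with 11.30, 11.26, 11.17 and 11.14 in 3xTg against 9.84, 9.73, 10.02 and 10.06 in WT (1.31 ± 0.11 SE, limma adjusted p = 0.00387), and by 1.30 at A_55_P2104716 (adjusted p = 0.042). Its remaining probe, A_55_P2108389, which averaged 15.52 in 3xTg and 15.43 in WT, close to the top of the scale, differed by 0.10 (adjusted p = 0.711). 4930555G01Rik, next to Gm3264 among the measured genes, rose at 2 of 4 probes (0.92 and 0.82, limma adjusted p = 0.0482 and 0.0379), with overlapping groups, and differed by 0.49 and 0.08 at the others. 2610042L04Rik, which lies between Gm5796 and Gm3264, differed by 1.03 ± 0.26 (SE) with -0.01 on array 3 (adjusted p = 0.108), and Gm2897 by 0.51 with no overlap (adjusted p = 0.0621). The measured long non-coding RNAs of the block did not pass: 1700110I01Rik, next to Gm3002, differed by 0.17, 0.07 and -0.05 at its 3 probes, and 4933406F09Rik by -0.02.

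**Figure D2:**
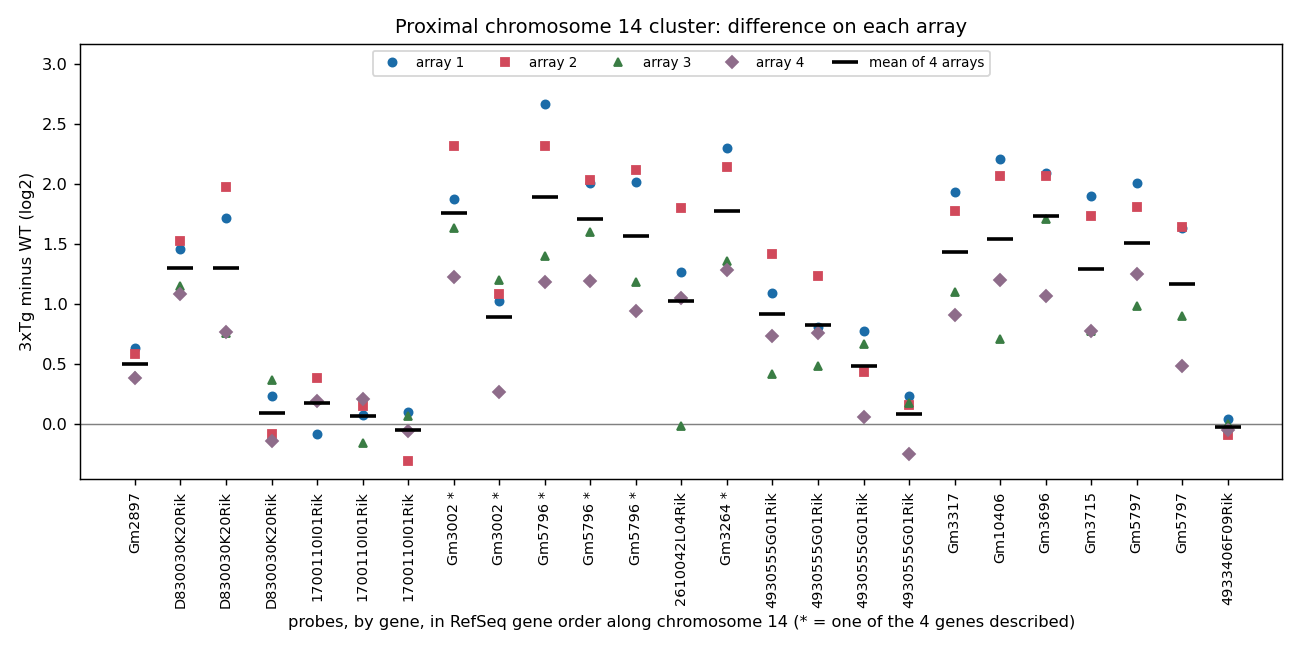
Difference between 3xTg and WT (log2, vertical axis) on each of the 4 arrays for the 25 probes of the proximal block, ordered by gene along chromosome 14, with the mean as a bar and the probes of Gm3002, Gm5796 and Gm3264 starred. The predicted genes lie mostly above 0, while the 3 probes of 1700110I01Rik and the probe of 4933406F09Rik lie near 0.

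How many probes of the block passed depended on the arrays and on the fit. Without replicate 2, 0 of the 19 probes passed (limma), while 13 had an unadjusted p under 0.05 and the median difference was 0.75. Over all probes the number that passed was 31 without replicate 2, against 400 with all arrays. In the block it was 3 without replicate 1, 10 without replicate 3, 5 without replicate 4, 4 without the array in the fit and 4 after quantile normalisation.

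A list of 34 symbols taken from general knowledge as candidates for the takusan family, with no protein sequence at hand, gave 7 measured genes and 15 probes. Of these, 9 probes of 5 genes rose and 0 fell, against 0.621% and 0.603% of all probes, and the median difference was 0.92. Of the 5 genes that rose, Gm3696, Gm10406, D830030K20Rik and 4930555G01Rik are from the block and were already counted above. Probes of these genes too may share targets, so the list is not independent of the block. Gm5458, which RefSeq places on chromosome 14 outside the block, rose at 3 of its 4 probes: at A_52_P291428 it read 12.97, 12.91, 12.49 and 12.24 in 3xTg, against 10.93, 10.72, 11.43 and 11.42 in WT (1.53 ± 0.23 SE, limma adjusted p = 0.0335). Its other probes differed by 1.51, 0.85 and 0.96 (adjusted p = 0.0121, 0.0455 and 0.0661). The probe behind the 1.51, A_55_P1978018, was dim in WT, at 6.31, 6.22 and 6.35 in replicates 1 to 3, below the first percentile of those samples (6.85, 6.88 and 6.85), so the size of its difference is uncertain. Gm3716, which RefSeq places on chromosome 5 as a long non-coding RNA, differed by -0.21 (adjusted p = 0.333). By replicate left out, the number of probes that passed was 3 without replicate 1, 0 without replicate 2 (12 at an unadjusted p under 0.05), 9 without replicate 3 and 5 without replicate 4, and it was 3 without the array in the fit and 3 after quantile normalisation.

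Around Gm3219 the picture differed from that in the block. RefSeq places it directly after Glud1, the mitochondrial glutamate dehydrogenase, and before Fam25c. Of the 29 probes of the 10 measured genes on each side, 1 rose and 1 fell, against 0.621% and 0.603% of all probes. The median difference was -0.01. Glud1 rose at A_55_P2065716, with 12.76, 12.64, 12.79 and 12.37 in 3xTg against 12.13, 11.91, 12.06 and 11.98 in WT (0.62 ± 0.10 SE, limma adjusted p = 0.0404), and differed by 0.19 at its other probe. The direction at that Glud1 probe was thus opposite to that of Gm3219. Ldb3, a muscle Z-disc protein further along among these neighbours, fell at A_65_P11603, with 9.06, 9.26, 8.57 and 9.24 in 3xTg against 11.05, 11.49, 11.40 and 11.73 in WT (-2.38 ± 0.14 SE, limma adjusted p = 0.000967). Its other probe differed by -0.38 (adjusted p = 0.128). Fam25c differed by 0.34, and Sncg, gamma-synuclein, by 2.94, 2.40, 0.72 and 0.36 on arrays 1 to 4 (adjusted p = 0.113); Sncg was chosen after its values were seen. Over the neighbours of all 4 genes together, 11 of 52 probes rose and 1 fell, against 0.621% and 0.603% of all probes. Of the 11, 10 are the block probes already counted above. Around Gm3002, Gm5796 and Gm3264, the neighbours outside the block gave 4 probes, of which 0 passed. Without the array in the fit, 4 of the 52 neighbour probes rose and 1 fell. Without replicate 1 the counts were 3 and 1, without replicate 2 they were 0 and 1, and without replicate 4 they were 6 and 1.

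**Figure D3:**
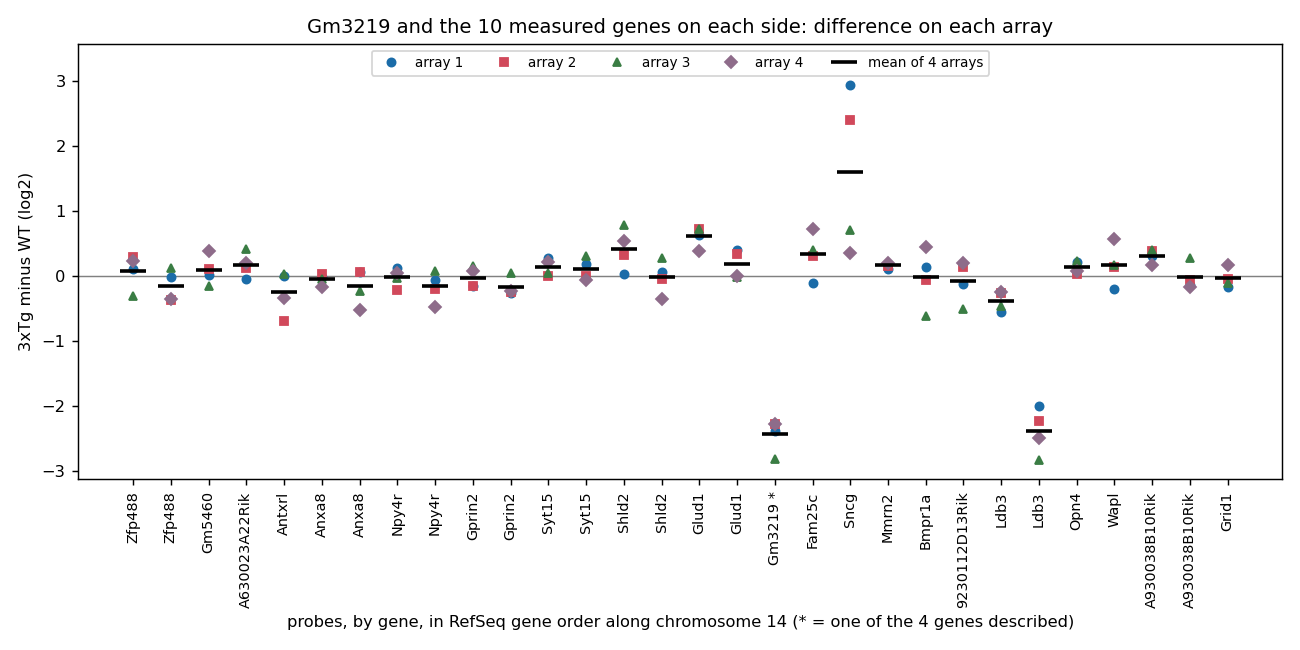
Difference between 3xTg and WT (log2, vertical axis) on each array for Gm3219 (starred) and the probes of the 10 measured genes on each side of it, in gene order. Gm3219 and 1 of the Ldb3 probes lie at -1.99 or lower on all 4 arrays, and most other probes lie near 0.

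The probes most like each gene over the 8 samples were looked up by Pearson correlation, as a description that includes the group difference and the shared arrays. For Gm5796 (A_55_P2097384) they were Gm3317 (r = 0.998), Gm3264 (0.997), Gm3715 (0.996) and Gm5458 (0.990), all on chromosome 14, and then the cadherin Cdh20 on chromosome 1 (0.989). For Gm3264 all 5 were from the block: 2 Gm5796 probes, Gm3317, Gm3715 and Gm3696, at 0.991 to 0.997. For Gm3002 (A_55_P2070748) the first was D830030K20Rik (0.994), followed by genes of other chromosomes, namely the endosomal GTPase Rab21 (0.985), the mannose 6-phosphate receptor M6pr (0.983), Ermard (0.982) and AW551984 (0.980). For Gm3219 none was on chromosome 14: they were the actin-binding protein Lima1 (0.994), the centromere chaperone Hjurp (0.988), the transcription factor Pou6f1 (0.986), 1810058I24Rik (0.985) and the importin Ipo13 (0.978), each lower in 3xTg.

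Dlg5, the gene to which takusan is related, lies on chromosome 14 and did not pass. It read 9.70, 10.94, 9.18 and 11.15 in 3xTg, against 9.28, 10.47, 9.81 and 10.70 in WT, and differed by 0.18 ± 0.19 (SE, limma adjusted p = 0.669). The groups overlapped, and 3xTg was lower on array 3 and higher on the others. Over a list of 35 genes of the Dlg family and the postsynaptic density, 32 were measured with 68 probes. Of these probes 0 rose and 2 fell, against 0.621% and 0.603% of all probes, with a median difference of -0.02. By limma, 25 of the 68 probes had an unadjusted p under 0.05, against 5888 of all 32684 probes (18%). Camk2a, a kinase of the postsynaptic density, fell at 1 of 2 probes by 0.68 (limma adjusted p = 0.0403) and differed by 0.02 at the other. Homer1, a scaffold that links glutamate receptors, passed at 1 of 5 probes, with a fall of 0.84 (adjusted p = 0.0473). At A_55_P1982122 it differed by -0.86 with no overlap of the groups (limma adjusted p = 0.0949). The remaining Homer1 probes differed by -0.45, -0.43 and -0.02. Grin2a differed by -0.70 and Dlgap4 by -0.51 at the probe of smallest p (adjusted p = 0.062 and 0.0826). The probes of Shank2 differed in sign, by 0.57 at A_55_P1984401 and by -0.40 at A_55_P2051656 (adjusted p = 0.0542 and 0.193). Dlg4 itself differed by 0.01, near the top of the scale. With 1 array left out the number of probes that passed was 0 without replicate 1, 2 or 4 in turn (20, 13 and 28 at an unadjusted p under 0.05) and 4 without replicate 3, and it was 0 without the array in the fit.

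The size of the difference varied between arrays. Over the 6 probes of Gm5796, Gm3264 and Gm3002 the median difference was 2.01, 2.13, 1.38 and 1.19 on arrays 1 to 4. Of the 16 probes of the block that are members or rose, 15 had the lower of arrays 1 and 2 above the higher of arrays 3 and 4. Over the whole block this held for 17 of 25 probes, and over the table for 17.6%; this split was chosen after the values were seen. Gm3219 did not follow this order.

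Markers of the cell types in the dissection were read beside these values. All 7 neuroblast markers and all 6 ependymal markers were measured, with group means from 8.63 to 14.33 and from 7.52 to 12.52 in 3xTg and from 8.48 to 13.53 and from 7.51 to 12.32 in WT. Markers of striatal projection neurons had medians of -2.06, -1.58, 0.25 and -0.39 on arrays 1 to 4 over 6 of 7 genes, 0 of which passed (limma; 6 of the 6 probes had an unadjusted p under 0.05). Their group means lay at 11.60 to 14.66 in 3xTg and 12.52 to 15.47 in WT. Arrays 1 and 2, where these medians were lowest, were also those where the 6 probes of Gm5796, Gm3264 and Gm3002 had the larger differences. On array 3 the striatal median was 0.25 and that of the 6 probes 1.38. The part of the striatal markers in the result was not tested. The other neuronal markers include Snap25 and Syt1, which lay at or near the top of the scale, where differences are compressed, so their median is not given. Among the rest, by the brightest probe, Rbfox3 differed by -0.40 (limma adjusted p = 0.276), Tubb3 by 0.23 and Map2 by -0.0002. That Rbfox3 probe differed by -0.85, -0.53, 0.26 and -0.51 on arrays 1 to 4. Medians over the 4 measured oligodendrocyte markers were -0.62, 0.61, 0.60 and 0.39 on the 4 arrays. All marker medians and group means use the brightest probe of each gene. That of Mbp was at the highest value of its sample (15.995) in 3xTg replicate 4. It differed by 0.40, and the other Mbp probes by 0.07 and 0.08. For the lists of microglia, endothelium, choroid plexus, ependymal cells, neuroblasts, and astrocytes with neural stem cells, the median of the mean differences lay between -0.04 and 0.28, and 0 probes passed (limma). Single markers went both ways: among neuroblast markers, where 4 probes had an unadjusted p under 0.05, Sp9 differed by 0.79 and Sox11 by -0.54 and -0.32 (adjusted p = 0.0588, 0.0697 and 0.171). Among astrocyte markers 5 probes had an unadjusted p under 0.05. Of these, Slc1a3 differed by 0.43 with no overlap (limma adjusted p = 0.119). Gfap probes differed by 0.31 and 0.28 and an Aqp4 probe by 0.28 (limma adjusted p = 0.167, 0.248 and 0.195). A Slc1a2 probe differed by -0.38 (limma adjusted p = 0.209), and the other Slc1a2 probes by 0.25 and 0.02. By the brightest probe, 4 of 5 astrocyte genes lay above 0. The medians of that list were 0.23, 0.21, 0.25 and 0.17 on arrays 1 to 4. Of the 5 microglial markers 0 lay above 0. There 2 probes had an unadjusted p under 0.05, Tmem119 at -0.46 and a Cx3cr1 probe at -0.35 (limma adjusted p = 0.154 and 0.22). Of the 4 endothelial markers 3 lay above 0, and Cldn5 differed by -0.33 with no overlap (limma adjusted p = 0.177). These markers were picked after their values were seen. In bulk tissue, fewer cells of a type and less RNA per cell cannot be told apart. App, at 14.48 in 3xTg and 14.30 in WT, differed by 0.18 (limma adjusted p = 0.405), and Thy1 by -0.06. The 3 Mapt probes differed by -0.11, 0.08 and 0.11. These mouse probes do not check the genotype labels.

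**Figure D4:**
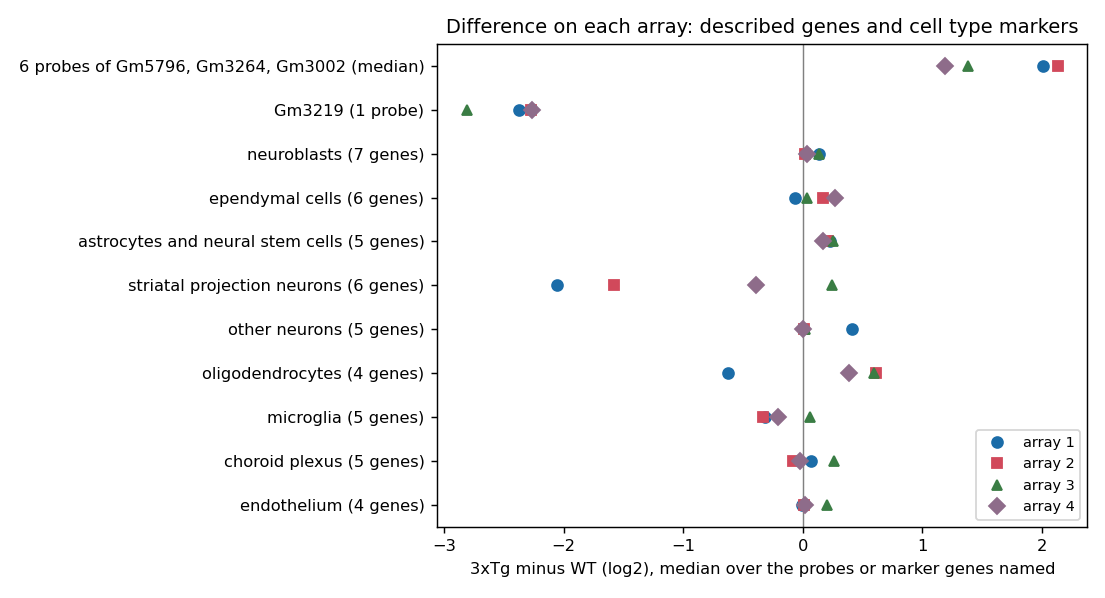
Difference between 3xTg and WT (log2, horizontal axis) on each of the 4 arrays, as the median over 6 probes of Gm5796, Gm3264 and Gm3002, for the Gm3219 probe and as the median over each cell type's markers (brightest probe of each gene). The 6 probes lie between 1.19 and 2.13, Gm3219 lies between -2.81 and -2.27, and the striatal markers spread from -2.06 to 0.25. The points for other neurons include markers at the top of the scale, and so does array 4 for oligodendrocytes (Mbp).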

How the data were processed

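RNA from the subventricular zone was measured on 4 2-colour arrays. The values are log2 intensities as deposited, normalized by the authors. The submitters' processing notes name limma. How background was corrected and values normalized, and which limma version ran, is not given in the sources used here. Sample medians were 10.12 to 10.15 log2 units, and 0 values of the 7 probes were at the top of the scale. The scanner files were not used here. The small number of arrays limits precision.

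Probes were named through the platform annotation: 29769 had 1 symbol, 0 several and 2915 none. Of the named probes, 29519 matched RefSeq (GRCm38.p6) by Entrez identifier and 250 did not. RefSeq was used for names, gene order and promoters.

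A linear model was fitted in limma 3.58.1 (R 4.3.3) with array and genotype as fixed effects, and adjusted over all probes. The p-values are two-sided. Samples of 1 array share a scan file in the labels; their deviations from the group means correlated at 0.54 to 0.82, against at most 0.18 between arrays. The fit was also run on simulated data with independent noise and no effect of the array, unlike these samples. That simulation therefore does not check the array term. The alternatives were no array term, a random array block (statmod 1.5.0), median centring, quantile and loess normalization, other moderation, a table with the dimmest 25% of probes removed, fits with 1 array fewer, 5 neighbours on each side, and averaging the probes of a gene.

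The genes and lists were chosen with earlier results of these data known. Genes named are all probes of the 4 genes, Dlg5, list and neighbour genes that passed, the 5 of smallest p in the takusan and Dlg lists, the measured neighbours next to each gene, the 5 probes most correlated with each, and App, Mapt and Thy1; others are chosen after their values were seen. No protein table was at hand, so family members were listed by symbol instead of by protein match.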

Additional observations from a re-analysis of the deposited data

How the results depend on the processing

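The differences of the 7 probes chose them, and the fits without the block, with a random block, with other moderation or without dim probes cannot change a mean difference. Leaving out 1 array cannot turn its sign either, since all 4 arrays share it. Median centring, quantile and loess normalisation moved the differences by less than 1 SD between arrays. Leaving out 1 array gave 1.64 to 2.13 for Gm5796 (A_55_P2097384), 1.60 to 1.88 (A_55_P2030282), 1.38 to 1.77 (A_55_P2030275), 1.60 to 1.94 for Gm3264, 1.58 to 1.94 and 0.80 to 1.11 for Gm3002, and -2.49 to -2.30 for Gm3219. Averaging all probes of the gene gave 1.72 for Gm5796 and 1.33 for Gm3002. Gm3219 was left out with the dimmest 25% of probes.

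Counts of probes that passed (limma) depended on the fit. Over all probes 400 passed, against 78 without the replicate block, 1309 with a random block, 247 with quantile normalisation, 905 with trend and robust moderation, and 31 to 414 with 1 array left out. Of the takusan candidates 9 passed, against 3 without the replicate block, 3 with quantile normalisation, 5 without the dimmest 25% and 0 to 9 with 1 array left out. Of the neighbours 12 passed, against 5 without the replicate block, 5 with quantile normalisation and 1 to 11 with 1 array left out. In the block 10 passed, against 4 without the replicate block, 4 with quantile normalisation and 0 to 10 with 1 array left out. In the Dlg and postsynaptic list 2 passed, against 0 without the replicate block (15 at an unadjusted p under 0.05), 0 with quantile normalisation (25), 11 with a random block, 4 with median centring (1 higher, 3 lower), 8 with trend and robust moderation, 1 without the dimmest 25% and 0 to 4 with 1 array left out. Fewer samples or a smaller set of probes enter the fits that leave some out; otherwise the cause was not tested. The 50% protein identity limit was not run, as no protein table was used. Small differences and dim probes are limited by the 4 arrays, and no signal over background was used.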
